A study of Mus musculus with 24 samples.

Results

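The genes described here are 7 transcription factor genes of the macrophage lineage, Spi1, Maf, Cebpa, Cebpb, Klf2, Klf4 and Klf6, and Csf1r, which encodes the receptor for the growth factor that macrophages depend on. They were selected by symbol from the gene column of the deposited expression table, by a rule that uses no measured value, and are 8 of its 43629 genes. The list of symbols was chosen with earlier results of these data known. All 8 passed the filter on low values, as did 18637 genes in all. The libraries came from BMDMs (macrophages that were cultured from marrow cells) of C57BL/6 mice labelled as postnatal week 10. Total RNA was sequenced from wild-type cells (WT) and from cells with a knockout of Cited2 (KO), which encodes a transcriptional co-regulator that binds CBP and p300. Each genotype was used untreated (control) or after LPS, a bacterial cell wall component sensed by a Toll-like receptor, the T cell and NK cell cytokine IFNg, or the type 2 cytokine IL4. There were 3 libraries in each of the 8 groups. How Cited2 was deleted, the doses and times of treatment, and whether numbered libraries are separate mice or cultures are not given in the sources used here, so the p-values cover the spread between these libraries only.

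Csf1r is a receptor tyrosine kinase that binds the ligands CSF1 and IL-34 and keeps macrophages and their precursors alive. PU.1, the ETS factor encoded by Spi1, and the C/EBP factors open and activate the enhancers of the myeloid lineage, Csf1r's among them. MAF acts late in macrophage differentiation and restrains self-renewal, and the zinc finger factors KLF2, KLF4 and KLF6 adjust how a macrophage responds to inflammatory or alternative stimuli.

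RefSeq promoters for GRCm38.p6 were examined for 5 of the 8 genes, Cebpa, Cebpb, Klf2, Klf4 and Klf6. Those of Spi1, Maf and Csf1r were not examined. The 250 bases before the start are shown for the C/EBP pair, whose members moved in opposite directions with LPS, and for Klf4 and Klf6, which rose with LPS in both genotypes. Each sequence runs 5′ to 3′ on the strand of the gene and capitals mark the motif letters found on either strand. The stretches are chr7:35119043-35119292 (plus strand) for Cebpa, chr2:167688665-167688914 (plus) for Cebpb, chr4:55532476-55532725 (minus) for Klf4 and chr13:5861239-5861488 (plus) for Klf6.
Cebpa: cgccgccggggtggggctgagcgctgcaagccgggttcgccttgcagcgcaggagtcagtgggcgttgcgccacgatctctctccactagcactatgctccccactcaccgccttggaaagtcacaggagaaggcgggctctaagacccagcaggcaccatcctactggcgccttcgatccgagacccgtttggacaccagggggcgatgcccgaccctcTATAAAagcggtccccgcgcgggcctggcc
Cebpb: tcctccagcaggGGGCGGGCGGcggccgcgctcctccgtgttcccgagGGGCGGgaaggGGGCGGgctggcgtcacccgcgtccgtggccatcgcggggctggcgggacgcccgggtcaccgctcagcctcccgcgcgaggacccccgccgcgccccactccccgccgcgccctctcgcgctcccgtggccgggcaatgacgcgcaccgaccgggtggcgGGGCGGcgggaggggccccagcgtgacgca
Klf4: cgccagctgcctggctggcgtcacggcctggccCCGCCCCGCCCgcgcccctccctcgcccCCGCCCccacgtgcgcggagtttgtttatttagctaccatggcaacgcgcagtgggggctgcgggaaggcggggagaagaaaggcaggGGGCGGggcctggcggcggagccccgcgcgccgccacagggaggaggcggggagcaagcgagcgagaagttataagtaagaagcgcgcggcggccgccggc
Klf6: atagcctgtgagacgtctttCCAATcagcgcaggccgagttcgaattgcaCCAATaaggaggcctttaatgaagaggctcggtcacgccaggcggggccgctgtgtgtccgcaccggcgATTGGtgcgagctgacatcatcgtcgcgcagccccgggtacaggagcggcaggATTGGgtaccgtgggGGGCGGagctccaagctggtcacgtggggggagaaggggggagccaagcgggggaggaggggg
Motif letters were searched on both strands. The GC box, which binds Sp and KLF factors, was spelled CCGCCC. For the CCAAT box, which binds NF-Y, the letters in its name were used. The TATA box was spelled TATAAA. A site of the C/EBP factors was searched as TTGCNNAA. The ETS site that PU.1 prefers was searched as GAGGAAGT. For AP-1, the dimers of FOS and JUN, the pattern was TGANTCA. The capitals are a TATA box from -30 to -25 in Cebpa, 5 GC boxes in Cebpb (the pair farthest from the start overlap), 4 GC boxes in Klf4 (the pair farthest from the start overlap), and 1 GC box with 4 CCAAT boxes in Klf6. Positions are counted back from the start. Klf2 held 2 GC boxes. Of all 32536 distinct promoters of this length, 33.0% held the GC box letters, 33.8% those of the CCAAT box, 12.3% those of the TATA box, 9.57% the C/EBP letters, 2.45% the PU.1 letters and 6.73% the AP-1 letters. The letters of the last 3 motifs were in none of the 5 windows. The GC content was 66.4% for Cebpa, 81.6% for Cebpb, 71.2% for Klf2, 74.0% for Klf4 and 64.8% for Klf6.

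Recovered reads ranged from 1478507 to 73409343 per library with a median of 29551522.5. The shallowest library, KO LPS replicate 1, stood apart. The LPS differences of Cebpa, Klf2 and Klf4, which rest on few reads there, are therefore given with and without it. Single values of genes outside the 8 include it. In that library a single read was worth 23.6 and 3 reads, the floor of counting, 70.9. Such floors cover counting error only. Cited2 was 1117 to 4174 in WT and 8.52 to 94.5 in KO libraries. The 11 macrophage markers used were all in the table and summed to 342909 to 501648 per library. All 8 monocyte markers had reads in every group, and their sum was 733 to 787 in WT and 316 to 326 in KO control cells, 6348 to 7549 and 8765 to 10530 with LPS, 2971 to 3450 and 1863 to 2057 with IFNg, and 402 to 415 and 199 to 218 with IL4. The 13 neutrophil and granulocyte markers summed to 476 to 2829. Of these, Ly6g was at 0 in 23 of 24 libraries. In contrast, S100a8 (116 to 798), S100a9 (88.4 to 1276), Ngp (22.8 to 628), Mmp8 (130 to 306), Ltf (21.5 to 189) and Camp (1.18 to 94.5) had reads in every library. The others were at 0 in 2 to 14 libraries. The 10 dendritic cell markers summed to 2546 to 2559 in WT control and 20914 to 21159 in WT IL4 cells, and Itgax alone reached 18688. Sums of the fibroblast, mast cell, T and NK cell, B cell and erythroid lists were at most 770 each. The part of other cell types in the results below was not tested. In bulk RNA, fewer cells of a type and less RNA per cell cannot be told apart.

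Loss of CITED2 went with lower Maf in untreated cells, lower Spi1 with LPS, and higher Cebpa, Cebpb, Klf4 and Klf6 on average over the treatments, while no comparison of the genotypes passed for Csf1r (under quantile normalization those with LPS, -0.27, and on average, -0.13, did). A gene was called where the adjusted p of limma, Benjamini-Hochberg over all 18637 genes, was below 0.05, and log2 differences carry their SE. In control cells 3 of the 8 genes were called higher and 1 lower in KO, against 7.16% of all genes called (4.11% higher, 3.05% lower). With LPS the counts were 3 higher and 1 lower against 22.2% of all genes (9.70% and 12.5%). Without KO LPS replicate 1 Klf2 was no longer called higher with LPS (0.47, adjusted p = 0.065). The split of all genes with LPS then turned from 1808 higher and 2333 lower to 2151 and 1823. Among genes that reached 10 in 3 or more libraries, 33.1% were called between genotypes with LPS. With IFNg the counts of the 8 genes were 2 and 0 against 9.05% (4.83% and 4.21%), and with IL4 1 and 0 against 9.29% (6.14% and 3.14%). Averaged over the treatments, 4 were higher and 2 lower against 22.3% (11.6% and 10.7%). The median log2 difference of the 8 genes on this average was 0.19, and that of all genes tested was -0.03. Centring every library on its median adds 0.05 to 0.08 to each log2 difference of the genotypes, 0.42 to the response to LPS in either genotype, and 0.32 (WT) or 0.33 (KO) to the response to IFNg. The deposited scaling does not make library totals equal. Summed values were 18992840 to 20003481 in control libraries. With LPS they were 31791425 to 33267115 in WT and 34930113 to 37512449 in KO. Scaling to equal totals, which would lower the LPS responses, was not tested.

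**Figure D1:**
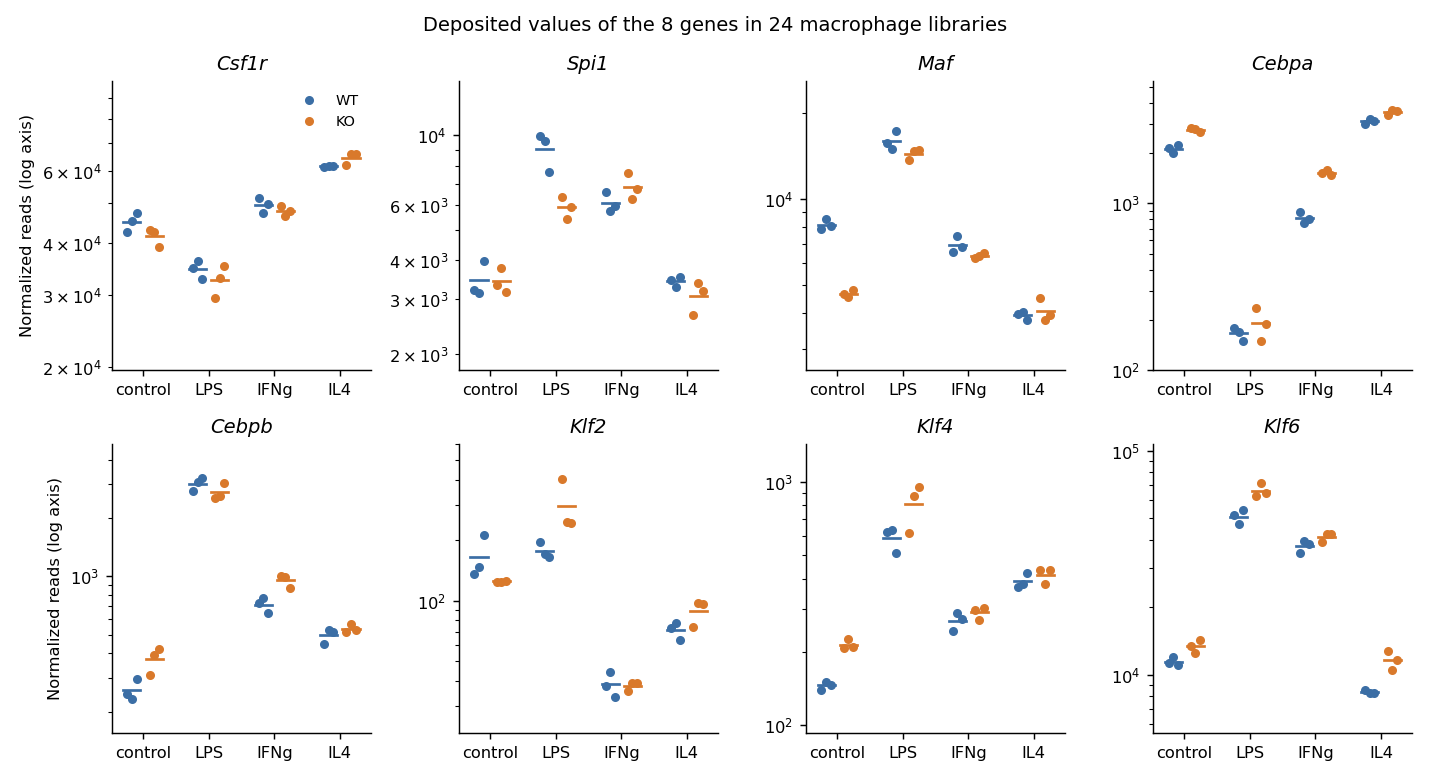
Normalized read value (log axis) of each gene in each library, by treatment on the x axis, with WT in blue and KO in orange; points are libraries and bars are group means. Maf lies lower in the KO than in the WT control libraries, Spi1 lower in the KO LPS than in the WT LPS libraries, and Cebpa falls below 240 in all 6 LPS libraries.

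Csf1r (ENSMUSG00000024621, chromosome 18, 61100598 to 61132149, plus strand, GRCm38, as for all positions below) was the most abundant of the 8 transcripts per kb of exon in untreated cells, at 7815 ± 409.8 in WT (SD, n = 3, as for all means below). Its values in control cells were 42626, 45407 and 47332 in WT and 43036, 42547 and 39232 in KO libraries. With LPS they were 34845, 36229.9 and 32814 in WT and 29508, 32935 and 35237 in KO. The genotypes overlapped in both conditions, and the log2 difference of KO from WT was -0.12 ± 0.06, adjusted p = 0.39, in control and -0.09 ± 0.06, adjusted p = 0.31, with LPS. IFNg libraries held 51559, 47490.1 and 49820.3 in WT and 49378, 46667 and 47881 in KO, and also overlapped (-0.05 ± 0.06, adjusted p = 0.8). With IL4 the values were 61339, 61649 and 61747 in WT and 61864, 66009 and 65792 in KO. Each KO IL4 library lay above each WT IL4 library, by a margin that did not pass (0.07 ± 0.06, adjusted p = 0.67). On average over the treatments the difference was -0.05 ± 0.03, adjusted p = 0.31.

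The receptor transcript rose with IL4 in both genotypes, and the sign of its other responses turned with the scaling. IL4 raised Csf1r by 0.45 ± 0.06 in WT (adjusted p = 3.4e-06) and 0.63 ± 0.06 in KO (adjusted p = 1.1e-08) on the log2 scale. LPS lowered it by the deposited scaling, with log2 differences of -0.38 ± 0.06 in WT (adjusted p = 8.4e-06) and -0.36 ± 0.06 in KO (adjusted p = 2e-05), but the sign turned under median centring, to 0.04 and 0.06. The rise with IFNg passed in KO (0.21 ± 0.06, adjusted p = 0.0071; 0.16 and not passing without KO control replicate 3) and not in WT (0.14 ± 0.06, adjusted p = 0.072), and under quantile normalization both turned, to -0.45 and -0.42. No genotype by treatment interaction passed for Csf1r (0.03 for LPS, 0.07 for IFNg and 0.18 for IL4). In the order of group means, KO LPS and WT LPS overlapped at the bottom, the control and IFNg groups overlapped with their neighbours above them, and WT IL4 and then KO IL4 stood clear at the top. The highest mean was 1.98 times the lowest. Csf1r shares exon bases with Hmgxb3 on the opposite strand, whose group means were 498 to 902. Since it is not given whether reads were counted by strand, reads from the overlap cannot be told apart.

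Spi1 (ENSMUSG00000002111, chromosome 2, 91082390 to 91115756, plus strand) rose with LPS and with IFNg in both genotypes, and its rise with LPS was smaller in KO cells. The control libraries held 3214, 3145 and 3971 in WT and 3319, 3779 and 3173 in KO. Those with LPS held 9938, 9622 and 7641 in WT and 6379, 5397 and 5914 in KO. Every KO LPS library lay below every WT LPS library, whereas the control genotypes overlapped. KO was at 65.0% of WT with LPS (log2 -0.61 ± 0.11, adjusted p = 0.00012) and showed no called difference in control (-0.0042 ± 0.11, adjusted p = 1). Without KO LPS replicate 1 the LPS value was 62.4% of WT (log2 -0.67).
With IFNg Spi1 was 6572, 5751 and 5952 in WT and 7561, 6252 and 6728 in KO. With IL4 it was 3451, 3272 and 3532 in WT and 2670.3, 3378 and 3184 in KO. Both pairs of groups overlapped, with log2 differences of 0.17 ± 0.11, adjusted p = 0.47, and -0.16 ± 0.11, adjusted p = 0.49.

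The log2 response of Spi1 to LPS was 1.40 ± 0.11 in WT (adjusted p = 3.1e-11) and 0.78 ± 0.11 in KO (adjusted p = 6.3e-07; -0.04 under quantile normalization). The interaction of genotype with LPS was -0.61 ± 0.15, adjusted p = 0.0093, and -0.67 without KO LPS replicate 1. It did not pass under quantile normalization (-0.55) or in a fit of only the 12 control and LPS libraries (-0.61), and its adjusted p ranged from 3.5e-05 to 0.068 over the alternatives. IFNg raised Spi1 by 0.83 ± 0.11 in WT (adjusted p = 3.7e-07) and 1.00 ± 0.11 in KO (adjusted p = 1.8e-08), and IL4 had no called effect (-0.00 and -0.16). In the order of means the IL4 and control groups overlapped at the bottom, KO LPS and both IFNg groups overlapped above them, and WT LPS stood clear at the top. On average over treatments KO differed from WT by -0.15 ± 0.05, adjusted p = 0.04. That call ended under median centring (-0.09), without the filter on low values (-0.15) and with the replicate number as a block (-0.15). It also ended without any 1 of 13 libraries (-0.16 to -0.13). These were WT control 3, KO control 1 and 3, WT LPS 1 and 2, KO LPS 2, WT IFNg 1 and 3, KO IFNg 2 and 3, WT IL4 1 and 3, and KO IL4 1.

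Maf (ENSMUSG00000055435, chromosome 8, 115682942 to 115707794, minus strand) showed the clearest difference between untreated genotypes. In control cells it was 7866, 8526 and 8082 in WT and 4679, 4544 and 4817 in KO libraries. The KO mean was 57.4% of WT, with no overlap, a log2 difference of -0.80 ± 0.06, adjusted p = 2.4e-09. With LPS the values were 15792, 15033 and 17302 in WT and 13749.9, 14715 and 14828 in KO. With IFNg they were 6547, 7438 and 6833 in WT and 6235, 6334 and 6505 in KO. KO lay below WT without overlap under both treatments, by margins that did not pass (-0.15, adjusted p = 0.088, with LPS and -0.12, adjusted p = 0.3, with IFNg). With IL4, 3967, 4025 and 3788 in WT and 4509.7, 3786 and 3925 in KO overlapped (0.05, adjusted p = 0.8). The sum of monocyte markers was lower in KO than in WT libraries in control, with IFNg and with IL4, and higher with LPS. Whether it bears on Maf was not tested. Averaged over the treatments Maf differed in KO by -0.26 ± 0.03, adjusted p = 6.9e-07.

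The response of Maf to each of the 3 stimuli differed by genotype. LPS raised Maf by 0.97 ± 0.06 in WT (adjusted p = 1.2e-12) and 1.62 ± 0.06 in KO (adjusted p = 4e-17), although under quantile normalization the WT value was -0.18. IFNg lowered Maf in WT (-0.23 ± 0.06, adjusted p = 0.0031; 0.09 under median centring) and raised it in KO (0.44 ± 0.06, adjusted p = 1.8e-06; -0.17 under quantile normalization). IL4 lowered it in WT (-1.05 ± 0.06, adjusted p = 2.1e-12) and in KO (-0.20 ± 0.06, adjusted p = 0.018), the latter a call that ended without KO control replicate 1 or 3 or KO IL4 replicate 2 or 3 (-0.20 to -0.15), under median centring (-0.22), by edgeR (-0.18) and in a fit of only those groups (-0.20). The 3 interactions were 0.65 ± 0.09, adjusted p = 1.8e-05, for LPS, 0.68 ± 0.09, adjusted p = 2.8e-05, for IFNg and 0.85 ± 0.09, adjusted p = 3.4e-07, for IL4. They share the control libraries, where the genotypes differed by -0.80. No genotype difference of Maf was called under any of the 3 treatments. For the interaction with LPS 2 of the 8 genes were called higher and 2 lower, against 8.79% of all genes (4.29% and 4.50%). Of all genes 800 were higher and 839 lower, which became 1026 and 881 without KO LPS replicate 1 and 787 and 1330 without replicate 2. Maf alone was called, higher, for IFNg against 2.50% of all genes (1.32% higher, 1.18% lower) and for IL4 against 3.61% (2.45% and 1.15%). In the order of means only the IL4 groups at the bottom overlapped; KO control, KO IFNg, WT IFNg, WT control, KO LPS and WT LPS followed, each clear of the next, and the highest mean was 4.09 times the lowest. The antisense gene Gm15655 shares exon bases with Maf and had group means of 3.75 to 23.0.

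**Figure D2:**
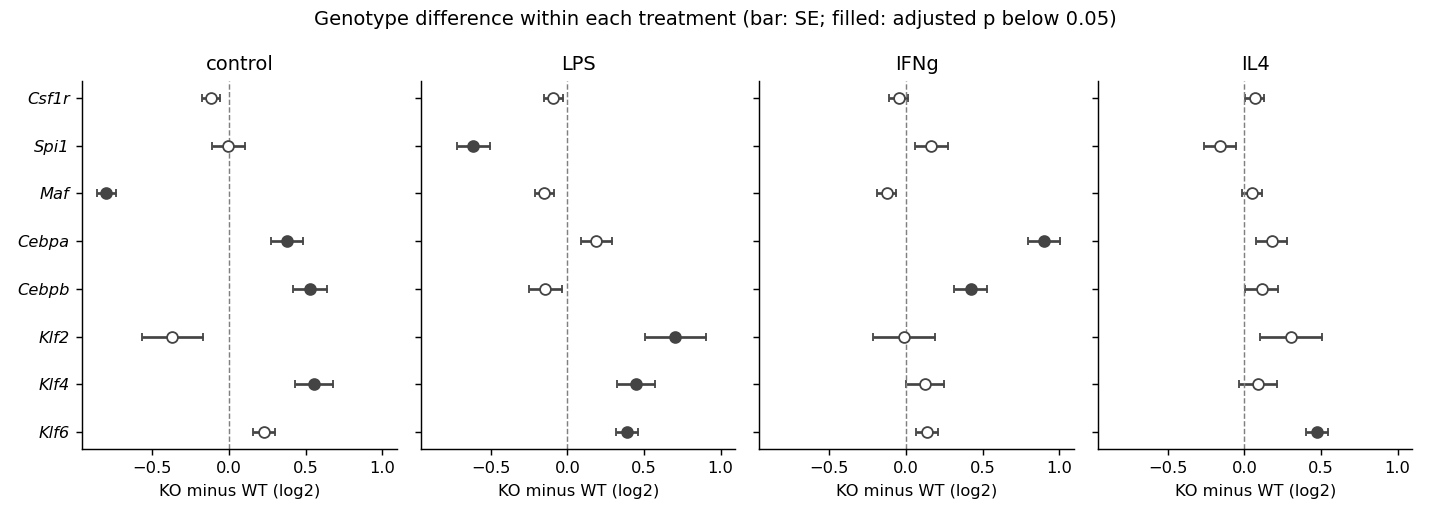
Log2 difference of KO from WT for each gene (rows) within each treatment (panels), with the SE of the fit as bars and filled points where the adjusted p was below 0.05. Maf at -0.80 in control and Cebpa at 0.90 with IFNg lie farthest from 0.

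Cebpa (ENSMUSG00000034957, chromosome 7, 35119293 to 35121928, plus strand), whose product C/EBP alpha is required for granulocyte and monocyte progenitors to form, had the widest range of the 8 genes. The control libraries held 2146, 1993 and 2242 in WT and 2813, 2805 and 2667 in KO. With LPS the values were 179, 169 and 149.9 in WT and 236, 150.1 and 190.2 in KO, from 10 to 267 reads per library. All 6 LPS libraries lay far below the control libraries, and with LPS the genotypes overlapped. LPS lowered Cebpa to 0.0784 of control in WT (-3.67 ± 0.10, adjusted p = 6.9e-20), and also in KO (-3.86 ± 0.10, adjusted p = 2.3e-20). Without KO LPS replicate 1, which held 10 reads, the KO response was -4.02. With IFNg Cebpa was 886, 761 and 801 in WT and 1508, 1589.8 and 1467 in KO. With IL4 it was 2986, 3202 and 3132 in WT and 3386, 3599 and 3549 in KO. KO libraries lay above WT libraries without overlap in control, with IFNg and with IL4. IFNg lowered Cebpa in WT (-1.38 ± 0.10, adjusted p = 3.2e-11) and in KO (-0.86 ± 0.10, adjusted p = 1.5e-07), and IL4 raised it in WT (0.55 ± 0.10, adjusted p = 0.00026) and in KO (0.35 ± 0.10, adjusted p = 0.015; not passing at 0.32 without KO control replicate 3 and at 0.33 without KO IL4 replicate 2).

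The largest genotype difference in Cebpa came with IFNg, where the KO mean was 186.5% of WT (log2 0.90 ± 0.10, adjusted p = 1e-06). In control the difference was 0.38 ± 0.10, adjusted p = 0.024, a call that ended without WT control replicate 1 (0.38) or 2 (0.33) or KO control replicate 1 (0.36) or 2 (0.37), with an adjusted p of 1.9e-06 to 0.12 over the alternatives. It did not pass with LPS (0.19, adjusted p = 0.21) or with IL4 (0.18, adjusted p = 0.4). Without KO LPS replicate 1 the LPS difference was 0.03. The interaction with LPS was -0.19 with that library and -0.35 (adjusted p = 0.053) without it, and neither passed. The average over treatments was 0.41 ± 0.05, adjusted p = 1.2e-06. The interaction with IFNg was 0.52 ± 0.15, adjusted p = 0.059, and passed under 6 alternatives, among them edgeR and DESeq2 (adjusted p from 1.5e-05 to 0.17). In the order of means the LPS groups overlapped at the bottom and every other group was clear of its neighbours, in the order WT IFNg, KO IFNg, WT control, KO control, WT IL4 and KO IL4; the highest mean was 21.1 times the lowest. Cebpa shares exon bases with the antisense gene Gm45091.

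Cebpb (ENSMUSG00000056501, chromosome 2, 167688915 to 167690418, plus strand), which encodes the inflammation-induced C/EBP beta, moved the other way with LPS. It was 246, 233 and 296 in WT and 309, 392 and 422 in KO control libraries. With LPS the values were 2739, 3049 and 3218 in WT and 2528, 2594 and 3035 in KO. LPS raised it 11.6-fold in WT (log2 3.54 ± 0.11, adjusted p = 5.1e-19) and 7.29-fold in KO (log2 2.87 ± 0.11, adjusted p = 3.7e-17). Control KO libraries lay above control WT libraries (log2 0.53 ± 0.11, adjusted p = 0.0023) and the LPS groups overlapped (-0.14, adjusted p = 0.39). The interaction with LPS was -0.67 ± 0.16, adjusted p = 0.0059; it did not pass in a fit of only the control and LPS libraries, and the adjusted p ranged from 0.00022 to 0.062. IFNg libraries held 727, 769 and 649 in WT and 1006, 995 and 873 in KO. IL4 libraries held 449.7, 529.8 and 516 in WT and 518, 565 and 530.3 in KO. Each KO IFNg library lay above each WT IFNg library (log2 0.42 ± 0.11, adjusted p = 0.013), a call that ended without WT IFNg replicate 3 (0.35) or KO IFNg replicate 1 (0.38) or 2 (0.39), and the IL4 groups overlapped (0.11, adjusted p = 0.71).

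IFNg raised Cebpb by 1.47 ± 0.11 in WT (adjusted p = 3.2e-11) and 1.36 ± 0.11 in KO (adjusted p = 1.3e-10), and IL4 by 0.95 ± 0.11 (adjusted p = 2.9e-07) and 0.53 ± 0.11 (adjusted p = 0.0006). On average over treatments KO was above WT by 0.23 ± 0.05, adjusted p = 0.003. Its means ran from WT control through KO control, the overlapping IL4 groups, WT IFNg and KO IFNg to the overlapping LPS groups, 11.6 times the lowest. The call in control did not pass in a fit of the 6 control libraries alone (0.53). Tmem189 shares exon bases with Cebpb on the opposite strand, and its means were 4040.4 in WT and 5088 in KO control, 2694 and 2478 with LPS, 3311 and 3620.4 with IFNg and 3183 and 3305 with IL4. These exceed the Cebpb values in all but the LPS groups, and the share of Cebpb reads that come from Tmem189 was not tested.

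Klf2 (ENSMUSG00000055148, chromosome 8, 72319033 to 72321656, plus strand), a factor known to keep macrophages and endothelium quiescent, was lowest with IFNg. The control libraries held 135, 146 and 212 in WT and 124, 124 and 125 in KO. With LPS the values were 196, 170.3 and 165 in WT and 402, 245 and 244 in KO. Each KO LPS library lay above each WT LPS library, but the highest, KO LPS replicate 1, rests on 17 reads. The log2 difference with LPS was 0.70 ± 0.20, adjusted p = 0.013, and without that library 0.47, which did not pass (138.0% of WT). KO control libraries lay below WT control libraries by a margin that did not pass (-0.37, adjusted p = 0.42). IFNg libraries held 37.7, 44.4 and 33.1 in WT and 35.6, 39.0 and 38.8 in KO. IL4 libraries held 73.2, 77.2 and 64.1 in WT and 73.9, 96.9 and 95.8 in KO. Both pairs overlapped (log2 -0.01 and 0.30, neither passing).

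LPS raised Klf2 in KO (1.20 ± 0.20, adjusted p = 1.3e-05; 0.96 without KO LPS replicate 1) and had no called effect in WT (0.13 ± 0.20, adjusted p = 0.64; 0.55 and called under median centring, 0.49 and called under quantile normalization). The interaction was 1.07 ± 0.28, adjusted p = 0.016, 0.84 without KO LPS replicate 1, 1.07 and not passing in a fit of only the control and LPS libraries, and 0.88 and not passing without WT control replicate 3, which held the highest Klf2 value of the WT control libraries. IFNg lowered Klf2 in WT (-2.05 ± 0.20, adjusted p = 3.9e-09) and in KO (-1.70 ± 0.20, adjusted p = 1e-07). IL4 lowered it in WT (-1.17 ± 0.20, adjusted p = 7.9e-05), and the KO value was -0.49, adjusted p = 0.082. Averaged over the treatments the genotypes differed by 0.16 ± 0.10, adjusted p = 0.3. The overlapping IFNg groups formed the bottom of the order, the overlapping IL4 groups came next, and then KO control, the overlapping WT control and WT LPS groups, and KO LPS.

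Klf4 (ENSMUSG00000003032, chromosome 4, 55527143 to 55532466, minus strand), known for promoting monocyte differentiation and alternative activation, rose with all 3 stimuli. In control cells it was 139, 150.3 and 147 in WT and 208, 225 and 209.6 in KO. With LPS it was 624, 634 and 512 in WT and 614, 872 and 956 in KO, where the lowest KO value, replicate 1, rests on 26 reads. The control genotypes did not overlap (log2 0.56 ± 0.12, adjusted p = 0.0044) and the LPS genotypes did. The LPS difference of 0.45 ± 0.12, adjusted p = 0.011, was 0.64 without KO LPS replicate 1, and did not pass without WT LPS replicate 3 (0.35) or KO LPS replicate 3 (0.32). IFNg libraries held 244, 288 and 272 in WT and 298, 271 and 304 in KO. IL4 libraries held 371, 381 and 421 in WT and 433, 379 and 433 in KO. Both pairs overlapped (log2 0.12 and 0.09, neither passing). LPS raised Klf4 by 2.01 ± 0.12 in WT (adjusted p = 6.1e-13) and 1.90 ± 0.12 in KO (adjusted p = 1.6e-12, and 2.09 without KO LPS replicate 1). IL4 raised it by 1.42 ± 0.12 in WT (adjusted p = 2.8e-09) and 0.95 ± 0.12 in KO (adjusted p = 1.6e-06). The rise with IFNg was 0.87 ± 0.12 in WT (adjusted p = 1.9e-06) and 0.44 ± 0.12 in KO (adjusted p = 0.0049). The genotype average was 0.30 ± 0.06, adjusted p = 0.00069. In the order WT control, KO control, IFNg, IL4 and LPS, the 2 genotypes overlapped within each treatment but not in control.

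Klf6 (ENSMUSG00000000078, chromosome 13, 5861482 to 5870394, plus strand), a factor known to favour inflammatory gene expression in macrophages, was the most abundant of the 3 KLF genes per kb of exon in every group. The control values were 11286, 11968 and 10991 in WT and 13347, 12513 and 14283 in KO. With LPS they were 51314, 46759 and 54158 in WT and 62583, 71470.1 and 64795 in KO. KO lay above WT without overlap in both, and the difference passed with LPS (0.39 ± 0.07, adjusted p = 0.0003; 0.08 and not passing under quantile normalization) and not in control (0.23 ± 0.07, adjusted p = 0.057). IFNg libraries held 34729.7, 39376 and 38160.4 in WT and 39016, 42219 and 42278 in KO, and overlapped (0.14, adjusted p = 0.32). IL4 libraries held 8528, 8257 and 8232 in WT and 12769.5, 10504 and 11588 in KO. Here KO was at 139.3% of WT without overlap (log2 0.47 ± 0.07, adjusted p = 4e-05), the only one of the 8 genes called between genotypes with IL4. Averaged over treatments Klf6 differed by 0.31 ± 0.04, adjusted p = 3.8e-07.

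LPS raised Klf6 by 2.15 ± 0.07 in WT (adjusted p = 2.2e-18) and 2.31 ± 0.07 in KO (adjusted p = 4.9e-19), and IFNg by 1.71 ± 0.07 (adjusted p = 3.3e-16) and 1.62 ± 0.07 (adjusted p = 1.1e-15). IL4 lowered it in WT (-0.45 ± 0.07, adjusted p = 3e-05) and in KO (-0.21 ± 0.07, adjusted p = 0.039); the KO call ended without KO control replicate 1 (-0.21) or 3 (-0.16) or KO IL4 replicate 2 (-0.14) or 3 (-0.21). It also ended without the filter on low values (-0.21), under median centring (-0.22) and by edgeR (-0.18). The same held with the replicate number as a block (-0.21) and in a fit of only those groups (-0.21). No interaction passed for Klf6 or Klf4. The WT IL4 group was lowest for Klf6, the control groups and KO IL4 overlapped next, and the overlapping IFNg groups, WT LPS and KO LPS followed.

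In the fit of only the 6 LPS libraries, limma called 0 of the 8 genes between genotypes, with 3 at an unadjusted p below 0.05, and 1021 of all 18637 genes. On all 24 libraries edgeR and DESeq2 each called 4 of the 8, and 3543 and 3561 of all genes. In the numbers of genes whose genotypes did not overlap, 6 of 8 stood apart in control (23.4% of all genes did), 4 with LPS (24.3%), 3 with IFNg (27.9%) and 3 with IL4 (32.3%). Those in control were Maf and Klf2, with KO below, and Cebpa, Cebpb, Klf4 and Klf6, with KO above.

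Among the responses, LPS gave calls for 7 of the 8 genes in WT (5 higher, 2 lower, against 53.3% of all genes, 25.5% higher and 27.8% lower) and for all 8 in KO (6 higher, 2 lower, against 57.0%, 24.5% and 32.5%). IFNg gave 7 in WT (4 higher, 3 lower, against 45.1%, 22.5% and 22.6%) and 8 in KO (6 and 2, against 46.0%, 22.3% and 23.7%). IL4 gave 7 in WT (4 and 3, against 20.1%, 10.6% and 9.56%) and 6 in KO (4 and 2, against 23.2%, 12.6% and 10.5%). In WT the median log2 response of the 8 genes was 1.18 to LPS, 0.48 to IFNg and 0.22 to IL4, where the medians of all genes were -0.06, 0.00 and 0.00. The 3 responses in a genotype share their control libraries. The shares of all genes depend on the filter. Among genes that reached 10 in 3 or more libraries, 72.3% (WT) and 77.6% (KO) were called with LPS, and 63.1% and 63.9% with IFNg.

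**Figure D3:**
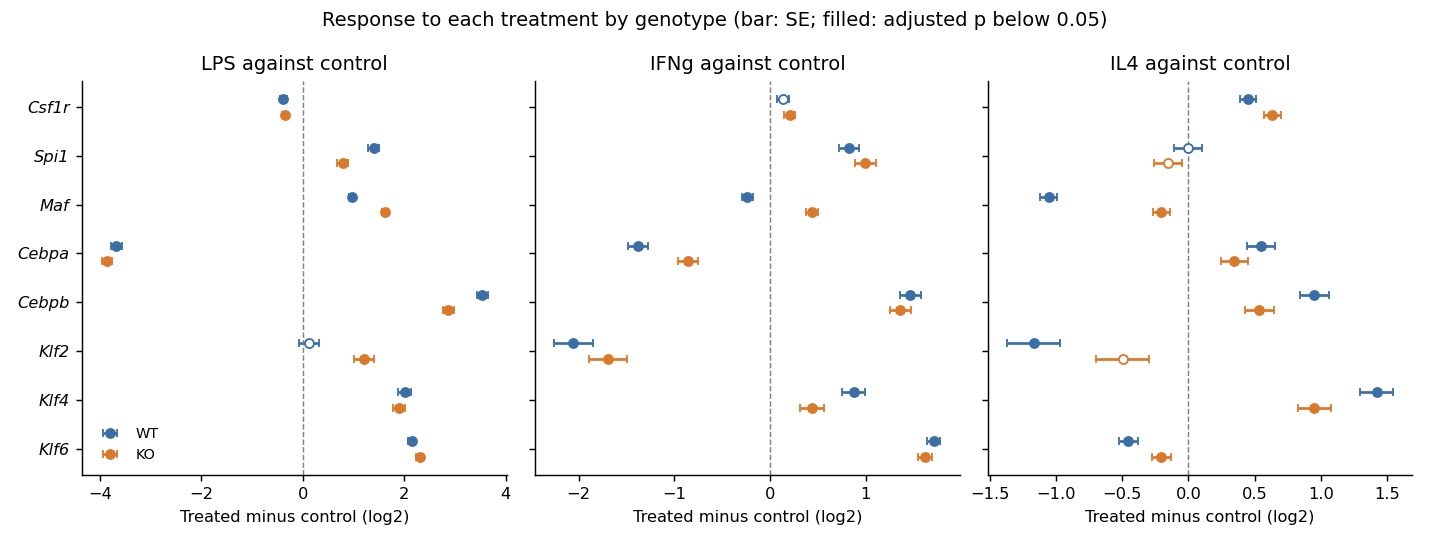
Log2 difference of each treatment from control for each gene (rows), with WT in blue and KO in orange, the SE of the fit as bars and filled points where the adjusted p was below 0.05. Cebpa lies at -3.67 (WT) and -3.86 (KO) with LPS and Cebpb at 3.54 and 2.87.

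Because exon lengths differ, levels between genes were compared per kb of exon. In WT control cells the order after Csf1r was Klf6 (2599.6 ± 114), Spi1 (1278 ± 170.1), Maf (989.9 ± 40.9), Cebpa (807 ± 47.6), Cebpb (172 ± 21.8), Klf2 (89.2 ± 22.6) and Klf4 (47.7 ± 1.86). With LPS Klf6 led at 11556 ± 849.9, ahead of Csf1r at 5998 ± 298, Spi1 at 3364 ± 462, and Cebpb and Maf, which overlapped at 1996 ± 161 and 1947 ± 140.2. Klf4 (193 ± 22.2), Klf2 (95.9 ± 8.79) and Cebpa (63.0 ± 5.66) came last.

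Ratios within a library compare relatives that share scaling. The log2 ratio of Cebpb to Cebpa in control cells was -3.12, -3.09 and -2.92 in WT and -3.18, -2.84 and -2.66 in KO. With LPS it was 3.93, 4.16 and 4.41 in WT and 3.41, 4.10 and 3.99 in KO. The pair changed places with LPS in both genotypes. These ratios are not corrected for exon length. Per kb of exon the Cebpb mean also exceeded that of Cebpa with IFNg. The means were 476 ± 40.5 and 310 ± 24.1 in WT, and 637 ± 49.2 and 577 ± 23.7 in KO, where the ranges overlapped. With IFNg the ratio was -0.28, 0.02 and -0.30 in WT and -0.58, -0.68 and -0.75 in KO, the KO values all lower, and with IL4 the genotypes overlapped. Averaged over treatments KO differed from WT by -0.18 (exact two-sided permutation test within treatments over 160000 assignments, p = 0.0658, adjusted p = 0.132 over 2 ratios; -0.21 and passing without KO control replicate 3). For Klf4 to Klf2 the average difference was 0.15 (exact permutation p = 0.400, adjusted p = 0.400), with 0.04, 0.04 and -0.53 in WT and 0.74, 0.85 and 0.74 in KO control libraries. By treatment KO minus WT was 0.93 in control, -0.26 with LPS, 0.13 with IFNg and -0.22 with IL4. The KO LPS values were 0.61, 1.83 and 1.97. The lowest was that of replicate 1, which held 17 Klf2 and 26 Klf4 reads.

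**Figure D4:**
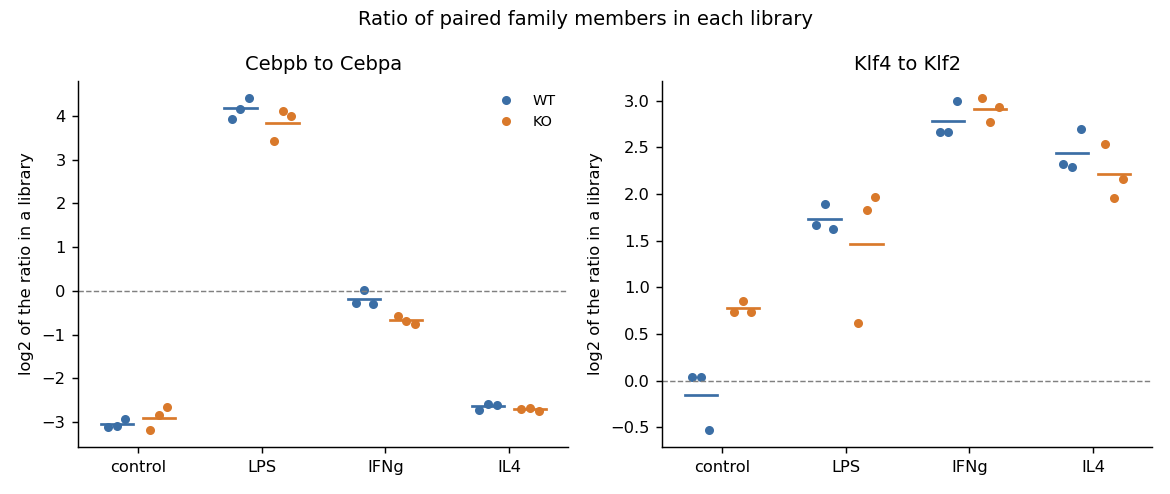
Log2 ratio of Cebpb to Cebpa and of Klf4 to Klf2 in each library by treatment, with WT in blue, KO in orange, bars at group means and a dashed line at equal values. Values are not corrected for exon length. The Cebpb to Cebpa ratio lies near -3 in control and near 4 with LPS in both genotypes.

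The other genes of the CSF1R pathway gave 8 called higher and 4 lower of 22 tested on the average of KO against WT (median log2 0.04; 11 higher and 2 lower under median centring). Of all genes, 11.6% were higher and 10.7% lower on this average, the background for each list count on it below. The largest evidence was for the shared receptor chain genes of the GM-CSF and IL-3 receptors, Csf2rb2 (0.35 ± 0.03) and Csf2rb (0.32 ± 0.03), and for the phospholipase gene Plcg2 (-0.24 ± 0.03). The ligand gene Csf1 rose with LPS from 109 ± 12.5 to 10026 ± 139 in WT, by 6.52 on the log2 scale. Between genotypes Csf1 was higher in KO in control (0.39 ± 0.07, adjusted p = 0.00024) and with IL4 (0.57 ± 0.07, adjusted p = 7.5e-07), lower with IFNg (-0.33 ± 0.07, adjusted p = 0.0013), and not called with LPS (-0.03, adjusted p = 0.83). The other ligand gene, Il34, had means of at most 7.37 ± 2.63, in WT LPS cells.

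Of 19 tested ETS, IRF and RUNX partners of PU.1, 3 were higher and 4 lower on the KO average, against 11.6% and 10.7% of all genes (median -0.04; 5 higher and 2 lower under median centring). Irf8, which encodes a partner of PU.1 required for monocyte development, differed by 0.80 ± 0.03 on average, with 7521 ± 209.7 in WT and 32478 ± 1830.4 in KO LPS cells. Its differences were 0.34 ± 0.05 in control, 2.11 ± 0.05 with LPS and 0.63 ± 0.05 with IFNg, all called, and 0.13, adjusted p = 0.16, with IL4. Spi1 and Irf8 lay on opposite sides of WT in KO LPS cells. Runx2 differed by 0.47 ± 0.07 and the repressor gene Etv3 by -0.24 ± 0.04, while Runx1, which acts with PU.1 in blood formation, differed by -0.12 ± 0.03, adjusted p = 0.0055. Of 17 genes known to be bound or raised by PU.1, 6 were higher and 7 lower (median -0.03), or 8 and 2 under median centring. Examples were the oxidase subunit gene Cybb (0.47 ± 0.04) and the lysozyme gene Lyz2 (-0.71 ± 0.04).

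Of 6 tested genes of the MAF and BACH families, 4 were higher and 0 lower on the average, against 11.6% and 10.7% of all genes (median 0.30; 4 and 0 under median centring). These included the haem-regulated repressor gene Bach1 (0.41 ± 0.03) and the small MAF genes Mafk (0.26 ± 0.04) and Maff (0.33 ± 0.05). Of 12 genes known to be raised by MAF factors, 7 were lower and 1 higher on the KO average (median -0.56, that of all genes -0.03), 6 and 1 under median centring, and 8 and 2 without KO LPS replicate 1. By condition 5 were lower and 0 higher in control (median -0.63), against 3.05% and 4.11% of all genes, and 6 and 1 with LPS (-0.50), against 12.5% and 9.70%. With IFNg 3 were lower and 2 higher (0.0043), against 4.21% and 4.83%, and with IL4 7 and 2 (-0.73), against 3.14% and 6.14%. Cd5l, a secreted scavenger protein gene, differed by -0.99 ± 0.03 and the complement gene C1qa by -0.97 ± 0.07; C1qa was 5473 ± 739.8 in WT and 2568 ± 312 in KO control cells. The gene higher in KO was Mertk, an efferocytosis receptor gene (0.67 ± 0.02), at 1177 ± 44.0 in WT and 5408 ± 203 in KO LPS cells. With IL4 C1qa differed by -1.07 ± 0.14, adjusted p = 3e-06.

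Among 5 other C/EBP genes, 2 were higher and 1 lower on the average, against 11.6% and 10.7% of all genes (median -0.02). Ddit3, which encodes the stress-induced CHOP, was higher in KO in all 4 conditions, by 0.59 in control, 0.52 with LPS, 1.05 with IFNg and 0.65 with IL4 (average 0.70 ± 0.03, adjusted p = 6.3e-15). Cebpd was lower in KO with LPS, 635 ± 58.9 in WT and 272 ± 82.0 in KO (-1.26 ± 0.24, adjusted p = 0.00034). Of 14 genes known to be raised by C/EBP factors, 13 rose and 0 fell with LPS in WT, against 25.5% and 27.8% of all genes (median 4.51, that of all genes -0.06). The list was chosen with earlier results of these data known. It was not kept free of LPS-induced genes, so this count does not measure C/EBP activity. Between genotypes 3 of the 14 were higher and 5 lower on the average (median 0.06). The lower ones included the receptor gene Il4ra (-0.37 ± 0.04) and the acute phase gene Saa3 (-0.75 ± 0.10). Arg1, which encodes arginase and is in both this list and the next, was 3841 ± 276 in WT and 443 (420.3 to 468) in KO with IL4 (-3.11 ± 0.47, adjusted p = 4.1e-05).

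Among 11 tested other KLF genes, 4 were higher and 0 lower on the average, against 11.6% and 10.7% of all genes (median 0.11; 5 and 0 under median centring, edgeR or DESeq2). Klf9 differed by 0.52 ± 0.06, Klf8 by 0.28 ± 0.05, Klf7 by 0.20 ± 0.03 and Klf10 by 0.15 ± 0.03. The most abundant of these other KLF genes per kb in WT control cells were Klf13 and Klf10, at 377 ± 16.3 and 375 ± 3.29, and Klf13 was not called on the average (0.015, adjusted p = 0.76). Klf7 and Klf3 rose with LPS in WT (4.42 ± 0.07 and 1.87 ± 0.07) beside Klf4 and Klf6, and Klf8 was 589 ± 61.2 in WT and 1200.3 ± 108 in KO LPS cells (1.03 ± 0.11, adjusted p = 9.1e-08). Of 9 genes known to be raised by KLF2 or KLF4, 2 were higher and 3 lower on the average (median -0.04), among them the lipid receptor genes Cd36 (0.35 ± 0.04) and S1pr1 (-0.57 ± 0.09).

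Genes with the most similar pattern were ranked by Pearson r of log2(value + 1) over the 24 libraries, among 8950 genes of sufficient level. The libraries share their treatments and scaling, and r is a description with no test. For 7 of the 8 genes the nearest were Ifi30 (0.969) to Csf1r, Cebpd (0.968) to Spi1, Pid1 (0.978) to Maf, Blvra (0.992) to Cebpa, Cpeb3 (0.954) to Klf2, Nfil3 (0.961) to Klf4 and Prkx (0.997) to Klf6. Also among the nearest were Coq5 (0.967) for Csf1r, Slc16a3 (0.966) for Spi1, Ctla2b (0.974) for Maf, Dnmt3a (0.989) for Cebpa, Tmem50b (0.982) for Cebpb, Slc9a3r1 (0.953) for Klf2, Zcchc2 (0.955) for Klf4 and Ptprc (0.995) for Klf6.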

How the data were processed

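Gene expression was measured in 24 libraries, 3 in each of 8 groups set by the labels' genotype and treatment. The deposited table gives a signal per gene: normalized reads that the authors made by dividing read counts by a scaling factor for each library. The values themselves show it: 100.0% are whole multiples of their library's step (tolerance 0.05 reads). The submitters' processing notes name TopHat2 2.2.1, Cufflinks 2.2.1, Cuffdiff and the builds mm10 and GRCm38; the counting step, its strand setting and its annotation are not given in the sources used here. Positions and exon lengths come from GENCODE M21, which held 42548 of the identifiers. Of 43629 genes, 24301 had a read, and the 18637 genes that reached a value of 1 in 3 or more libraries were tested as log2(value + 1) with limma 3.58.1 in R 4.3.3, in 1 fit of all groups with Benjamini-Hochberg adjustment at 0.05 (residual degrees of freedom 16). Fold changes are on that scale, which understates changes of low genes. Ratios within libraries were tested by exact permutation in Python 3.11.15. The code was tested on simulated data.

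Alternatives were pseudocounts of 0.5 and 10, no filter or a filter at 10, median centring, quantile normalization, library weights, a replicate block, fits of only the groups compared, leaving out each library, and edgeR 4.0.16 and DESeq2 1.42.0 on the recovered whole reads. By edgeR 1905 genes were called between genotypes in control, 3543 with LPS, 2533 with IFNg, 2862 with IL4 and 4912 on average. The 24 pairs of replicates differed beyond counting noise (chi-square per degree of freedom 2.03 to 24.5), so no pair was the same library counted again. This check cannot tell libraries of the same mouse or culture from those of separate ones.

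All 8 genes are described whatever their test. From each list up to 3 genes are named by the smallest p on the KO average and 2 by the response described; Csf1, Il34, Irf8, Runx1, Cebpd and expressed KLF genes may be named whatever their p, and Arg1, Cybb, Mertk and C1qa are followed in single conditions. For likeness, genes with a mean of at least 100 were ranked. Some planned values, 1 ratio among them, are not reported here. The genes and lists were chosen with earlier results of these data known. Counts of list genes under other scalings and without KO LPS replicate 1 were added after seeing the data. Lists share genes such as Arg1, Mrc1 and Csf3r. Adgre1 is listed as Emr1 and was matched by its Ensembl identifier.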

Additional observations from a re-analysis of the deposited data

Results flagged for a closer look

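The response to a treatment differed between genotypes by the interaction test of limma for 4 of the 8 genes with LPS. The value is the log2 response of KO minus that of WT. It was -0.61 ± 0.15 for Spi1 (adjusted p = 0.0093), whose KO LPS libraries all lay below the WT LPS libraries, and -0.67 ± 0.16 for Cebpb (adjusted p = 0.0059), whose KO control libraries all lay above the WT control libraries. It was 0.65 ± 0.09 for Maf (adjusted p = 1.8e-05), whose KO control libraries all lay below those of WT. For Klf2 it was 1.07 ± 0.28 (adjusted p = 0.016), with 17 reads in KO LPS replicate 1, and 0.84 without that library. It did not pass without WT control replicate 3 (0.88) or in a fit of only the control and LPS libraries (1.07). In that fit the interactions of Spi1 (-0.61) and Cebpb (-0.67) did not pass either. The response of Maf to IFNg differed by 0.68 ± 0.09 (adjusted p = 2.8e-05), and its response to IL4 by 0.85 ± 0.09 (adjusted p = 3.4e-07). These 6 interactions share the control libraries of their genotype. For Maf a genotype difference was called in control (-0.80) and under none of the treatments.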

How the results depend on the processing

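Of 112 results (8 genes in 14 comparisons) 66 were called, and 45 of these kept their direction and call under every alternative run. Over 1260 alternatives of called results 1197 kept the call and direction, 56 lost the call and 7 reversed; over 924 of uncalled results 40 gained it and 34 reversed. Beside single libraries left out, calls were lost in the fit of only the groups compared (10), under median centring (3), without a filter (2), by edgeR (2), under quantile normalization (2) and with the replicate block (2). Those outside the fit of only the groups were Spi1 on the average, Maf and Klf6 to IL4 in KO, Klf6 between genotypes with LPS and the LPS interaction of Spi1. The cause was not tested. The fit of only the groups compared gives no average over treatments.

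Reversals between genotypes were as follows. Spi1 in control, uncalled, was 0.065 under median centring, 0.018 by edgeR, 0.043 with library weights and -0.077 to 0.10 leaving out single libraries. Klf2 with IFNg, uncalled, was 0.065 under median centring, 0.083 under quantile normalization, 0.026 by edgeR, 0.0018 by DESeq2, 0.078 with weights and -0.11 to 0.10 leaving out libraries. Median centring turned Csf1r with IFNg (0.029) and on average (0.018). Maf with IL4 was -0.067 under quantile normalization and -0.026 to 0.10 leaving out libraries.

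Responses reversed under median centring for Csf1r to LPS (0.038 in WT, 0.060 in KO), Maf to IFNg in WT (0.086) and Spi1 to IL4 in WT (0.0062; 0.029 by edgeR, 0.058 with weights, -0.065 to 0.10 leaving out libraries). Under quantile normalization those reversed were Maf to LPS in WT (-0.18) and to IFNg in KO (-0.17), Csf1r to IFNg (-0.42 in WT, -0.45 in KO) and Spi1 to LPS in KO (-0.036). Interactions reversed under quantile normalization for Csf1r (LPS -0.13, and -0.033 to 0.094 leaving out libraries; IFNg -0.029) and Klf6 (LPS -0.10). That of Klf4 with LPS was 0.028 by edgeR and DESeq2, 0.039 with weights and -0.24 to 0.081 leaving out libraries.

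The log2 ratio of Cebpb to Cebpa on the KO average was -0.22 to -0.13 leaving out single libraries. By the exact permutation test adjusted over 2 ratios it passed without KO control replicate 3 (-0.21) and under no other alternative run.

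The number of the 8 genes called moved in some fits. Between genotypes it was 0 with LPS in the fit of only those groups, 1 to 2 with IFNg leaving out libraries, and 2 with IL4 with weights or in the fit of only those groups. For IL4 against control in KO it was 3 to 6 leaving out libraries. For the LPS interaction it was 1 in the fit of only those groups. For the IFNg interaction it was 2 with a pseudocount of 10, median centring, edgeR, DESeq2 or only those groups, and 3 with weights. For the IL4 interaction it was 2 under quantile normalization, edgeR or only those groups, 3 by DESeq2, 4 with weights and 1 to 2 leaving out libraries.

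With the replicate number as a block, Spi1 on the average (-0.15) and Klf6 to IL4 in KO (-0.21) lost their calls, and members called fell to 5 in both comparisons. Deviations of same-numbered KO and WT libraries of a treatment had r of -0.33 to 0.37, above 0.1 in 2 of 12 pairs, both with IFNg. Whether the numbers pair libraries across treatments was not tested.

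Counts over all genes moved beyond 1.5 times with library weights between genotypes in control (1334 to 3063), with IFNg (1686 to 3512) and IL4 (1731 to 4035), and for IL4 against control in WT (3749 to 6125) and KO (4316 to 7056). Interaction counts went from 1639 to 2755 for LPS, 466 to 1520 for IFNg and 672 to 2338 for IL4. With the filter at 10 the share of genes called also moved beyond 1.5 times. This held between genotypes with IFNg and with IL4, and for the interactions with LPS, IFNg and IL4. DESeq2 gave 849 and 1169 for the IFNg and IL4 interactions, and 2576 and 2735 between genotypes with IFNg and IL4, where edgeR gave 2533 and 2862. In fits of only the groups compared, LPS gave 1021 genes against 4141 between genotypes and 862 for the interaction. Median centring turned the split of higher and lower genes on the average from 2158 and 1995 to 3215 and 1193, in control from 766 and 568 to 922 and 369, with LPS from 1808 and 2333 to 2162 and 1554, and with IFNg from 901 and 785 to 1134 and 442. For responses it gave 6823 and 3065 (LPS, WT; deposited scaling 4759 and 5183), 6326 and 3947 (LPS, KO; 4571 and 6060), 6107 and 2515 (IFNg, WT; 4201 and 4211) and 6022 and 2564 (IFNg, KO; 4152 and 4420). DESeq2 gave 1932 and 1629 between genotypes with LPS, and quantile normalization 1174 and 999 with IL4 (1145 and 586). For the IL4 interaction the split of 457 and 215 became 527 and 399 under quantile normalization and 515 and 410 by edgeR. The depth of KO LPS replicate 1 limits Cebpa, Klf2 and Klf4 there, which rest on 10 to 26 reads.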

Other observations

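Other transcription factor genes of macrophages that are in none of the families above gave 9 called higher and 4 lower of 20 tested on the average of KO against WT (median log2 0.11; 12 higher and 4 lower under median centring). The shares of all genes on this average were 11.6% and 10.7%. In control cells 8 were higher and 0 lower (8 and 1 by edgeR or DESeq2), against 4.11% and 3.05% of all genes. Egr2, which encodes a factor of alternative activation, was 1287 ± 10.9 in WT and 2507 ± 80.5 in KO control cells (0.96 ± 0.07, adjusted p = 5.1e-10, limma), and 4633 ± 136 and 4782 ± 43.9 with IL4 (0.05, adjusted p = 0.85). The stress response factor gene Atf3 differed by 0.30 ± 0.02 on average and the repressor gene Bhlhe40 by 0.35 ± 0.02. The 11 defining macrophage markers gave 3 higher and 6 lower on average (median -0.13), or 4 and 2 under median centring. Within the MAF and BACH family, Bach1 was lowered by LPS in WT (-0.28 ± 0.06, adjusted p = 0.0002) and raised in KO (0.81 ± 0.06, adjusted p = 9e-12), with 3061 ± 202 in WT and 6857 ± 217 in KO LPS cells. Maff was 820.4 ± 41.4 in WT and 2017 ± 52.2 in KO LPS cells, whereas in control cells it was 42.3 ± 3.12 and 41.6 ± 7.97.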
